A study of Mus musculus with 4 samples.

Results

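The clustered protocadherins are 58 genes that lie side by side on mouse chromosome 18, from 36930285 to 37841873 (mm10). They were taken as every annotated gene there whose symbol begins with Pcdha, Pcdhb or Pcdhg, among 49943 annotated genes on the assembled chromosomes. The alpha subcluster held 14 genes, the beta subcluster 22 and the gamma subcluster 22, and 57 of the 58 were protein-coding. The exception was Pcdhgb8, a transcribed pseudogene. Peaks were read from 200 kb before the first gene to 200 kb after the last.

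Open chromatin had been measured by ATAC-seq, in which the transposase Tn5 inserts sequencing adapters into accessible DNA. All 4 libraries came from whole lungs of wild-type (wt) mouse embryos at E15.5 and formed 1 group, with no transgene, treatment or second genotype. Nothing in the labels ties replicates 1 to 4 to different embryos. Each SD below is thus the scatter of these 4 samples, and it may be purely technical.

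Clustered protocadherins are homophilic adhesion proteins of the cell surface, best known from neurons. In mouse neurons each cell uses a few of the alternate exons, and the resulting surface code lets a neurite recognise its own sister branches. Every alpha and gamma gene has a promoter and a large variable exon of its own, which is spliced to constant exons shared by the subcluster, whereas each beta gene is a single exon. Pcdhac1, Pcdhac2, Pcdhgc3, Pcdhgc4 and Pcdhgc5, the C-type genes, are known in mouse neurons to be used more evenly across cells than the alternate genes.

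The libraries differed in ways that touch the values below. On the assembled chromosomes they held 134503 to 211678 peaks, the fewest in replicate 1. Median fold enrichment was 8.99 in replicate 1 and 3.73 to 3.90 in replicates 2 to 4. The names given to single peaks in replicate 1 contain a French term for fresh tissue, and in the other lists they contain "frozen", while the labels describe all lungs as snap-frozen. The part of this difference in the results was not tested. The weakest peaks of a list rested on a summit pileup of 7 or 8 fragments, recovered from the deposited folds, and a promoter with no peak need not be closed. Of the lung markers, 3 of 5 for mesenchyme and 3 of 5 for epithelium could be placed by strand, and all of these had a start peak of every library, as did 63.5% of protein-coding genes outside the family. At either annotated end, a rule chosen after seeing the data, all 5 of each list had one, against 66.8% of such genes.

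Most clustered protocadherins showed no open promoter in the embryonic lung, and those that did were almost all C-type or late gamma genes. A promoter window of 1 kb either side of the gene start was touched by a peak of every library in 7 of the 58 genes. These were Pcdhac2, Pcdhgb6, Pcdhgb7, Pcdhgb8, Pcdhgc3, Pcdhgc4 and Pcdhgc5. They made up 12.1% of the family, and the same call held for 63.5% of 17492 other protein-coding genes with a known strand. With the summit itself required in the window, 6 members and 55.9% of other genes passed. No library had a promoter peak at 42 members (72.4%), and 25.8% of other genes lacked one. The remaining 9 members had a peak in 1 or 2 libraries.

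**Figure D1:**
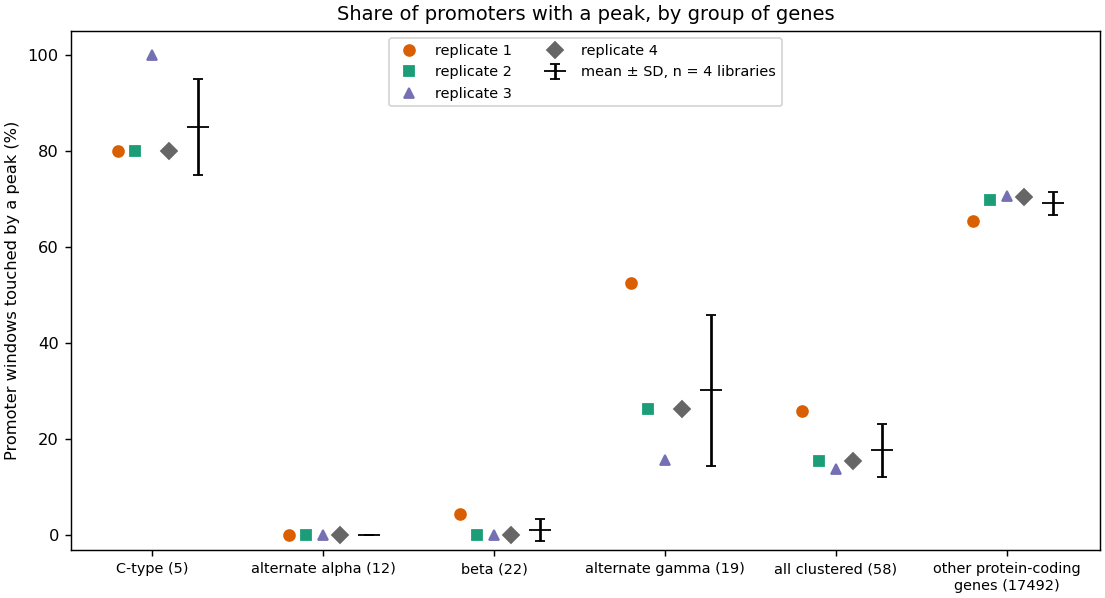
Percent of promoter windows touched by a peak (y axis) in each of the 4 libraries (points), for groups of clustered protocadherins and for other protein-coding genes, with the number of genes in brackets. Black bars give the mean and SD over libraries. C-type genes lie at 80% to 100%, alternate alpha genes at 0% in every library.

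A promoter peak was present at 15, 9, 8 and 9 of the 58 members in replicates 1 to 4, against 65.5%, 69.8%, 70.6% and 70.5% of other genes. Replicate 1 stood highest among the members and lowest among other genes. The difference averaged -51.5 ± 7.92 percentage points (SD, n = 4) and was negative in all 4 libraries. An exact two-sided sign-flip permutation test over 4 libraries cannot go below p = 0.13, and the difference gave that value (0.13 after Benjamini-Hochberg adjustment over 4 such comparisons). The design therefore could not bring any of the 4 comparisons past 0.05.

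Among the alpha promoters, recurrent open chromatin was found at the last one alone. None of the 12 alternate genes, Pcdha1 to Pcdha12, had a promoter peak in any library. Pcdhac1, the first C-type gene, had a peak in replicate 3 alone, of fold 3.62, with its summit 128 bp before the gene start. Pcdhac2, known in mouse for the tiling of serotonergic axons, was open in every library. Its peak had folds of 13.8, 7.73, 7.24 and 5.60 in replicates 1 to 4, and its summit lay between 69 and 216 bp after the gene start. All 4 libraries thus placed the summit on the same side of the start. Fold is here the value the authors give a peak, read as the summit pileup plus 1 over the expected pileup plus 1. Folds below 15 fitted 1 expected pileup for each whole library, between 2.11 and 2.62 fragments, rather than a local one. The fold ranks peaks within a list. By rank the Pcdhac2 peak stood at the 78.1th ± 8.54 percentile of all peaks, but at the 16.9th ± 2.63 percentile among promoter peaks of other genes (SD, n = 4). Promoter peaks are on the whole stronger than other peaks, so the second rank is the one for comparing promoters.

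The beta genes held almost no peaks at their starts. Only Pcdhb19 had one, in replicate 1 alone, with a fold of 3.53 and a summit 8 bp after the start. The other 21 beta genes, Pcdhb1 to Pcdhb18 and Pcdhb20 to Pcdhb22, had none in any library. Alpha promoters carried a peak in 8.93% ± 3.57 of genes and beta promoters in 1.14% ± 2.27 (SD, n = 4), a difference of 7.79 points that was positive in all 4 libraries (exact sign-flip permutation p = 0.13). In replicate 1 a peak was present at 1 of 14 alpha genes and 1 of 22 beta genes, so the sign there came from the group sizes alone. The difference rested on Pcdhac1 and Pcdhac2, and with windows of 2.5 kb its sign turned (-1.30 points).

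Gamma promoters were open more often than beta promoters in every library. A peak was present at 13, 8, 6 and 8 of the 22 gamma genes in replicates 1 to 4, and at 1, 0, 0 and 0 of the 22 beta genes. The difference was 38.6 ± 11.4 points (SD, n = 4), positive in all 4 libraries (exact sign-flip permutation p = 0.13). The open genes lay towards the 3′ side. Among the 19 alternate gamma genes, those open in every library were Pcdhgb6, Pcdhgb7 and Pcdhgb8, the 14th, 16th and 18th in order along the DNA.

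Pcdhgb6 had folds of 9.32, 5.52, 5.57 and 6.53 in replicates 1 to 4, and all its summits fell within 39 bp of the gene start. Pcdhgb7 had folds of 7.71, 4.42, 5.01 and 4.36, with summits between 27 bp before and 131 bp after the start. Pcdhgb8 had folds of 9.64, 4.97, 3.90 and 3.73, with summits 103 to 262 bp before the start. All were weak promoters by rank. Among promoter peaks of other genes Pcdhgb6 stood at the 13.4th ± 2.39 percentile, Pcdhgb7 at the 9.43th ± 1.67 and Pcdhgb8 at the 8.62th ± 2.76 (SD, n = 4). Summit pileups ranged from 11 to 29 fragments, against 7 or 8 at the weakest peaks of the lists. Among all peaks the 3 stood higher, at the 71.8th ± 13.1, 61.5th ± 12.3 and 57.6th ± 8.44 percentile (SD, n = 4). With lists cut to equal length these means were 64.3, 50.4 and 43.0.

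The remaining alternate gamma genes varied between libraries. In replicate 1, peaks touched 10 of the 19 promoters, against 5, 3 and 5 in replicates 2 to 4. Pcdhga1, Pcdhga3 and Pcdhgb1 had a peak in replicate 1 alone, with folds of 6.10, 5.14 and 3.85. Pcdhga7 and Pcdhga12 had one in replicates 1 and 2, and Pcdhga9 and Pcdhga11 in replicates 1 and 4. The other 9 alternate gamma genes had none in any library, which were Pcdhga2, Pcdhga4, Pcdhga5, Pcdhga6, Pcdhga8, Pcdhga10, Pcdhgb2, Pcdhgb4 and Pcdhgb5. Replicate 1 had the most of these promoter peaks although its list was the shortest. How reads that align to several of these similar genes were treated is not given in the sources used here, so values of single alternate and beta genes are uncertain.

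**Figure D2:**
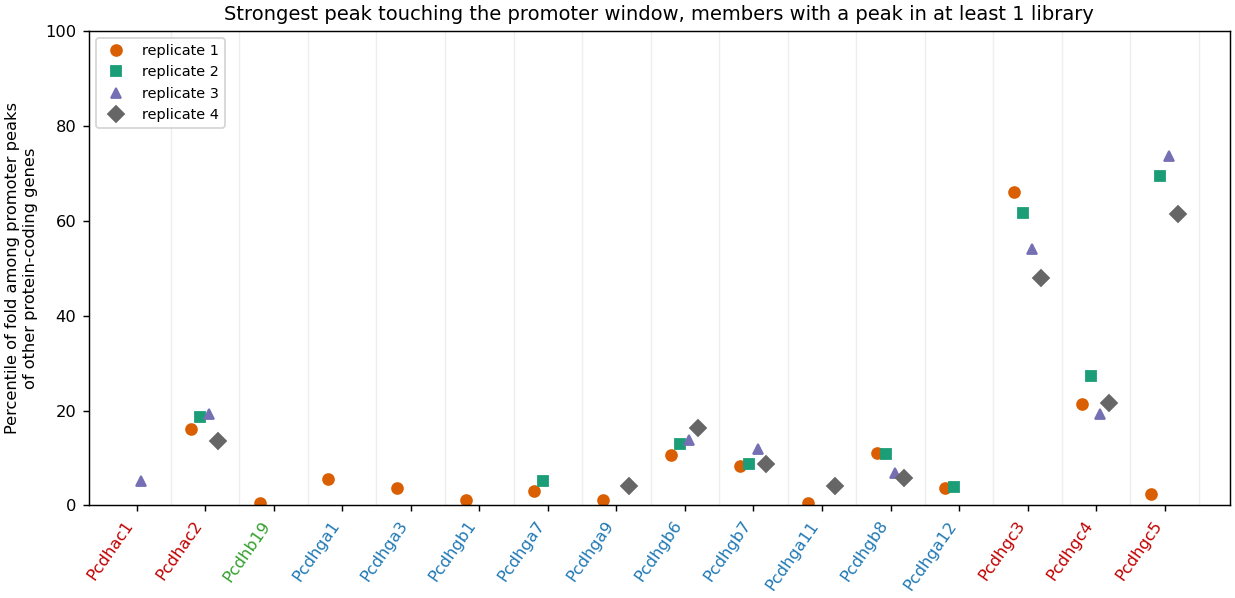
Percentile of fold of the strongest peak touching each promoter window among the promoter peaks of other protein-coding genes (y axis), for the 16 members with a peak in at least 1 library, in order along the DNA. Points are libraries, and label colours mark C-type (red), alternate (blue) and beta (green) genes. Pcdhgc3 lies between 48.0 and 66.0, and the high points of Pcdhgc5 come from a peak whose summit lies 6701 to 6828 bp after its start.

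The C-type genes stood apart from the alternate ones. A promoter peak was present at 4, 4, 5 and 4 of the 5 C-type genes, against 10, 5, 3 and 5 of the 31 alternate alpha and gamma genes. The difference was 66.5 ± 17.6 points (SD, n = 4), positive in all 4 libraries (exact sign-flip permutation p = 0.13). It was 51.5 points when the summit itself had to lie in the window.

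Pcdhgc3 had the strongest promoter peak of its own in the family. It takes part in dendrite branching in mouse cortex. Its folds were 84.2, 30.1, 21.7 and 19.3 in replicates 1 to 4, with summits 74 to 113 bp before the gene start, a spread of 39 bp. This put it at the 95.6th ± 0.91 percentile of all peaks and the 57.4th ± 8.0 among promoter peaks of other genes (SD, n = 4). Its promoter thus ranked near the middle of open promoters, and the next member with a summit of its own in every library was Pcdhgc4.

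Pcdhgc4, needed for the survival of interneurons in mouse, had folds of 19.3, 11.6, 7.24 and 8.40, with summits 212 to 298 bp after the start. It ranked at the 22.4th ± 3.43 percentile of promoter peaks (SD, n = 4). Pcdhgc5 was touched by a peak in every library, but only replicate 1 had a summit in its window, of fold 4.50 and 37 bp before the start. In replicates 2 to 4 the window lay inside peaks 9320 to 9854 bp wide whose summits were 6701 to 6828 bp downstream. The ranks of those peaks, with folds of 36.2, 34.8 and 26.1, are therefore not those of the Pcdhgc5 promoter.

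**Figure D3:**
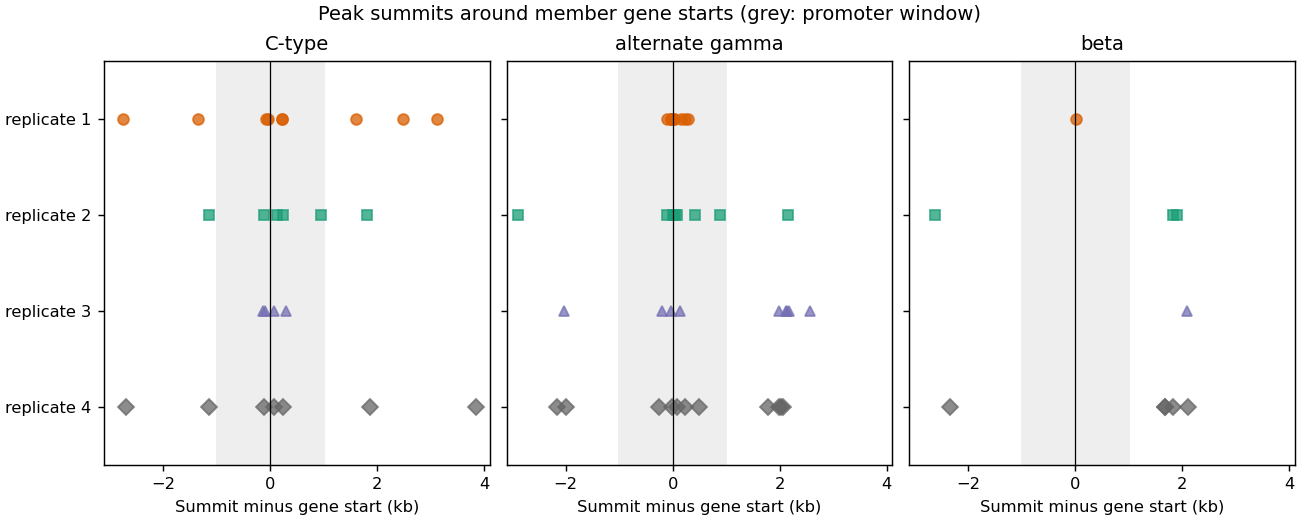
Distance of peak summits from member gene starts in kb (x axis) in each library (rows), for C-type, alternate gamma and beta genes, with the promoter window in grey. A summit near 2 genes is drawn for each. In replicate 1 the alternate gamma summits all lie within 300 bp of a start.

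The most widely open stretch of the locus was the end of the gamma subcluster, from the start of Pcdhgc3 to the shared 3′ end, 35.5 kb in length. Peaks covered 31.4%, 76.6%, 78.5% and 79.5% of it in replicates 1 to 4. Across all assembled chromosomes they covered 2.95%, 5.29%, 5.93% and 6.09%. The low value of replicate 1 went with narrower peaks: its peak at Pcdhgc3 was 1275 bp wide, and those of replicates 2 to 4 were 4947, 4578 and 5108 bp wide. The number of peaks was similar, at 8, 8, 6 and 8.

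Beyond the C-type promoters, 2 further summits in this stretch recurred in every library. One lay 6.8 kb after the start of Pcdhgc5, between 37826247 and 37826374, with folds of 128, 36.2, 34.8 and 26.1 and the 97.4th ± 0.59 percentile of all peaks (SD, n = 4). Another lay 16.1 kb after that start, between 37835665 and 37835685, with folds of 104, 26.2, 26.5 and 25.8 and the 96.5th ± 0.51 percentile. Its summits agreed to within 20 bp. Both outranked every member promoter in mean percentile of all peaks.

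The shared 3′ ends of the alpha and gamma subclusters differed. Because exon positions were not analysed here, the constant exons themselves could not be placed, and windows of 1 kb either side of the shared gene end were used. The gamma end at 37841870, within 10 bp of which 21 of 22 genes end, carried folds of 128, 36.2, 30.1 and 46.1. Its summit lay 319 to 399 bp past the end, at the 97.8th ± 0.63 percentile of all peaks (SD, n = 4). The alpha end at 37187657, common to 13 of 14 genes, had no peak in any library, and neither had the later end of Pcdha6 at 37188897.

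Inside the alpha subcluster, away from the promoters, the sites present in every library lay after Pcdhac2. A summit 28.8 kb after its start, between 37172387 and 37172537, had folds of 13.5, 8.83, 8.91 and 6.22. One 34.8 kb after the start, between 37178418 and 37178551, had folds of 37.3, 9.94, 6.96 and 4.98. These stood at the 80.2th ± 10.3 and 82.7th ± 6.93 percentile of all peaks (SD, n = 4), above or near the 78.1th of the Pcdhac2 promoter. They lie 15.2 and 9.2 kb before the shared 3′ end. A weaker merged region, from 37180120 to 37180817, also held a peak of every library, with folds of 6.10, 4.42, 3.34 and 3.11. Its summits were spread over 535 bp. Just before Pcdhac2, a region from 37141609 to 37142647 had peaks in replicates 1, 2 and 4, with folds of 14.8, 4.69 and 3.11.

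Between the subclusters, peaks were few. From the alpha end to Pcdhb1, 76.1 kb in length, no merged region held a peak of every library, and 3 regions held peaks of some. A site 6.92 kb past the shared alpha end, between 37194574 and 37194580, was present in replicates 1 and 2 with folds of 13.8 and 3.31. The value of replicate 1 was the highest fold of the stretch. A site 29.7 kb past the shared alpha end, between 37217272 and 37217341, was present in replicates 2 to 4 with folds of 3.04, 4.18 and 4.67. A site 30.7 kb past it, between 37218212 and 37218350, was present in replicates 1 to 3 with folds of 8.67, 4.97 and 4.46. An enhancer named HS5-1 is known in mouse downstream of the alpha constant exons. Its coordinates were not used here, so no site was matched to it. Between beta and gamma, the summit at 37644232 to 37644295 had folds of 46.6, 25.7, 26.2 and 25.5. It lies at an annotated end of Taf7, which encodes a subunit of the general transcription factor TFIID. A weaker summit at 37630511 to 37630677 had folds of 4.50, 3.31, 3.62 and 7.47, highest in replicate 4. The neighbouring Slc25a2, a mitochondrial carrier gene, had no peak at either end in any library.

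**Figure D4:**
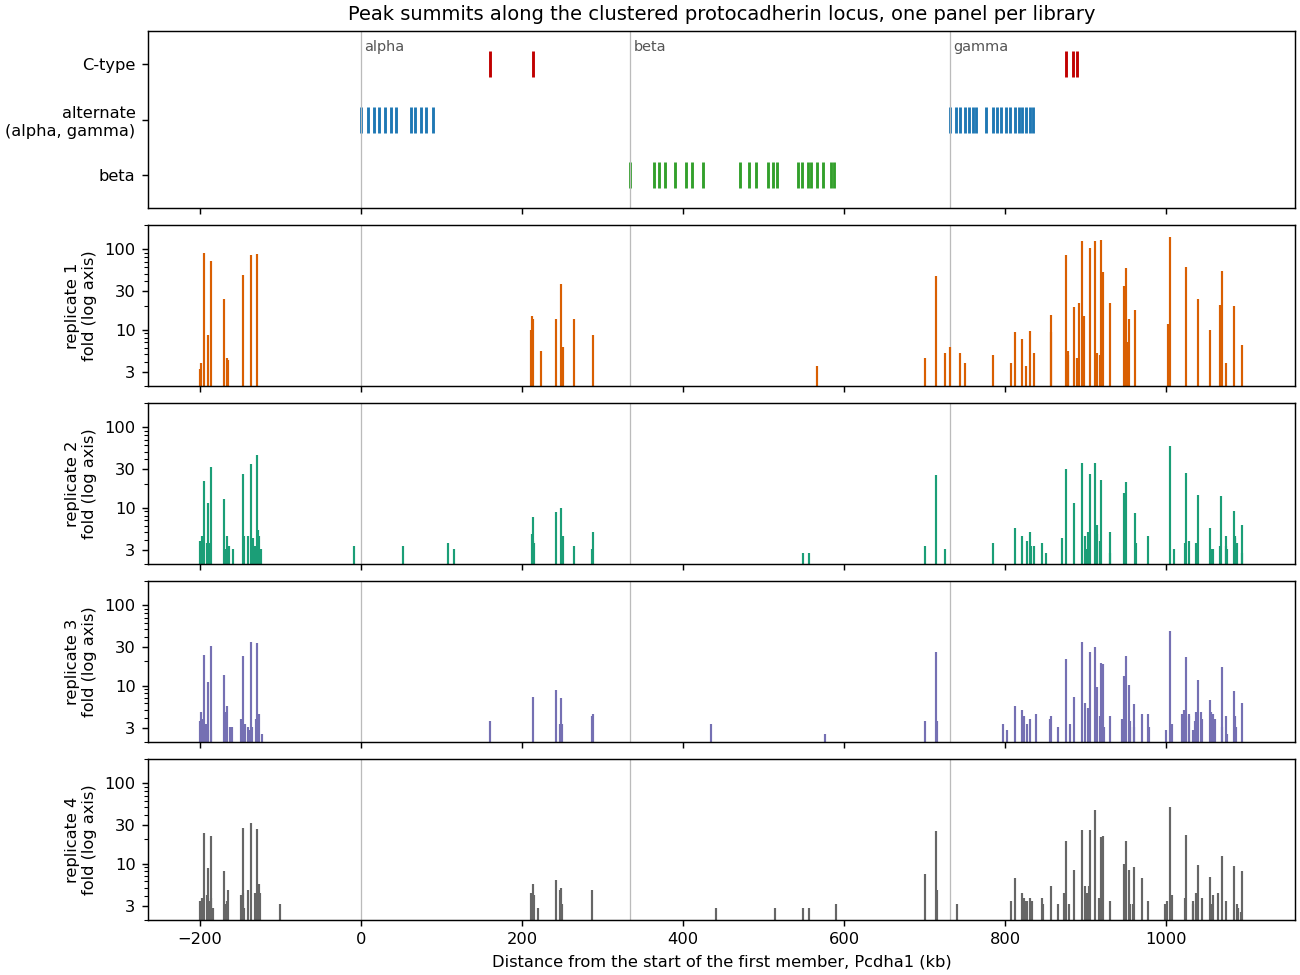
Fold of peak summits (log axis) along the locus in kb from the start of Pcdha1, in 1 panel per library, with the gene starts of C-type, alternate and beta members in the top panel and grey lines at the first alpha, beta and gamma gene. Stretches over the alternate alpha and beta genes are nearly free of peaks, and the strongest peaks lie at the gamma end and in both flanks.

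The alternate alpha and beta genes lay in long stretches with few peaks. Peaks covered 0.20% ± 0.27 of the alternate alpha stretch and 0.25% ± 0.22 of the beta stretch, against 5.07% ± 1.45 of all assembled chromosomes (SD, n = 4). In replicate 1 a single peak-free stretch of 338 kb held the starts of 13 members, Pcdha1 to Pcdhac1. Replicates 3 and 4 had such stretches of 282 kb with 12 starts and 310.4 kb with 13 starts. These stretches began in the upstream flank, at 36802349, 36807680 and 36830447 in replicates 1, 3 and 4, while Pcdha1 starts at 36930285. Their lengths therefore include DNA before the first member. In these libraries 0.42% to 0.48% of all gaps between peaks were as long or longer. Replicate 2 had 3 weak peaks in the alternate alpha stretch, and its longest alpha gap was 95.8 kb. Over the beta genes the longest gaps were 279, 261, 147 and 153 kb in replicates 1 to 4, with 18, 16, 8 and 8 starts inside. In the 4 lists merged, 147 kb from 37218406, with the starts of Pcdhb1 to Pcdhb8, held no peak of any library. These beta gaps too began before the first beta gene, Pcdhb1, which starts at 37264998.

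**Figure D5:**
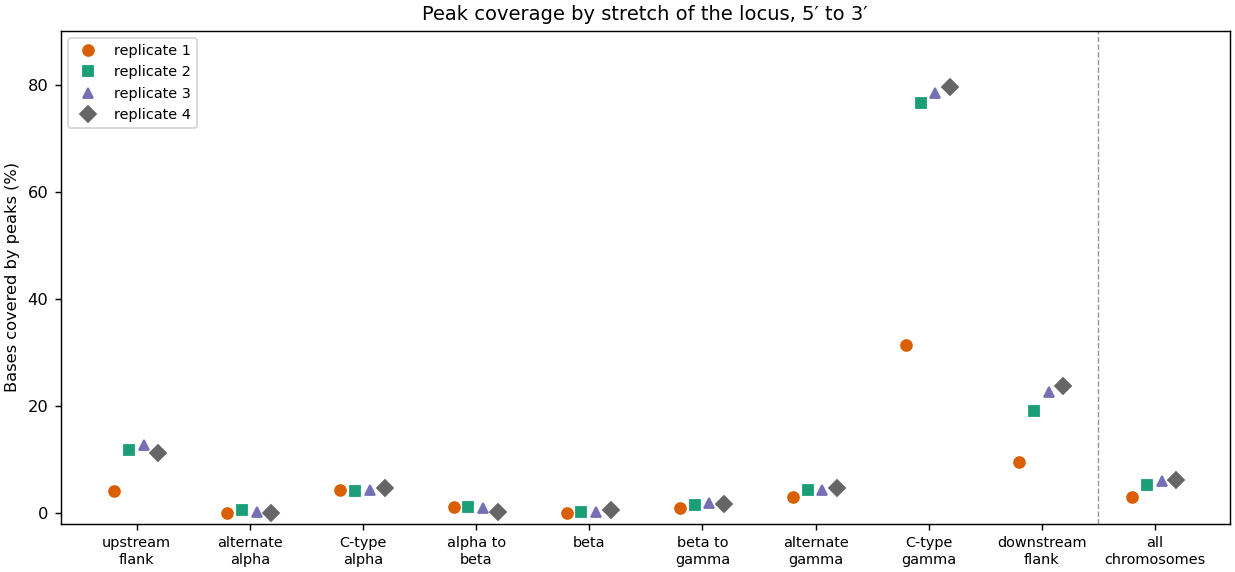
Percent of bases covered by peaks (y axis) in each stretch of the locus and across all assembled chromosomes, with 1 point per library. The C-type gamma stretch lies at 31.4% to 79.5%, while the alternate alpha and beta stretches lie below 1% in every library.

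In all, 151 merged regions touched the locus and its flanks, and 34 of them held a peak of every library, while 80 came from 1 library. Between the first start and the last end there were 13 such shared regions, or 1.43 per 100 kb, against 2.49 per 100 kb across all chromosomes. Of these, 7 touched a member promoter, 4 lay elsewhere inside a subcluster and 2 lay between beta and gamma. Taken by summits that lay within 300 bp of each other, 12 sites recurred in all 4 libraries, with a median spread of 130 bp.

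Both flanks held peaks of every library, but the upstream flank only in its part far from the cluster. The last upstream region with a peak of every library ended at 36802461, while Pcdha1 starts at 36930285. From 36807679 to Pcdha1 the flank held only weak peaks of single libraries, of fold 3.11 in replicate 4 and 3.31 in replicate 2. The window held 15 protein-coding neighbours, among them Taf7 and Slc25a2, which lie between beta and gamma rather than in a flank. At an annotated end, 14 of the 15 had a peak of every library, all but Slc25a2. By the same rule 66.8% of 21830 protein-coding genes outside the family did. Zmat2, the nearest protein-coding gene upstream, spans 36793923 to 36799660. Its strongest peak at either end stood at the 97.2th ± 1.63 percentile of all peaks (SD, n = 4). In replicate 2 that peak had its summit at 36801788, past the gene, and in replicates 1, 3 and 4 near 36793923. Diaph1, an actin regulator whose annotated span begins just past the gamma end, stood at 98.7 ± 0.58 (SD, n = 4). That Diaph1 peak lay at the far end of the gene, 93.7 kb past the gamma end. Peaks covered 9.98% ± 4.01 of the upstream and 18.7% ± 6.43 of the downstream flank.

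Lists of related genes were read by the same start rule, which 63.5% of other genes passed, and at either gene end, which 66.8% passed. Non-clustered protocadherins, single genes that encode similar adhesion proteins, were open at 7 of the 9 starts that could be placed, and at either end in 10 of 12 genes. Pcdh17, Pcdh18 and Pcdh19 stood at the 96.3th ± 0.65, 94.9th ± 0.71 and 92.7th ± 2.3 percentile of all peaks (SD, n = 4). Pcdh9 had a start peak in 1 library and Pcdh15 in 2. Classical cadherins were open at 6 of 11 starts, led by Cdh24 at 97.5 ± 0.85, Cdh15 at 91.9 ± 3.46 and Cdh8 at 87.9 ± 3.52, while Cdh9 and Cdh18 had no start peak in any library. At either end 12 of 19 classical cadherins were open, a share near that of other genes, and Cdh9, Cdh18 and Cdh19 had no peak. No difference between these lists and other genes was tested.

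Genes that encode regulators of protocadherin promoters were open in part of the list. CTCF and cohesin are known to fold promoters of the clusters onto their enhancers, and SMCHD1 is known to repress the clusters in mouse. A start peak of every library was present at 10 of the 11 regulators placed, against 63.5% of other genes. At either end 11 of all 14 were open, against 66.8% of other genes. The exceptions were Rad21, a cohesin subunit gene, and Nipbl, a cohesin loader gene, with a peak in 2 libraries each. Stag1, another cohesin subunit gene, had none. Only the outer ends of each annotated gene were read, so peaks elsewhere in these genes were not counted and their promoters need not be closed. Smchd1, Smc3 and Smc1a stood at the 98.7th ± 0.21, 98.6th ± 0.47 and 97.8th ± 0.71 percentile of all peaks and Ctcf at 96.4 ± 0.77 (SD, n = 4). Among 11 markers of neurons and neural crest, 5 starts could be placed. A peak of every library was present at 4 of these 5, against 63.5% of other genes. It was also present at the 1 endothelial start placed, and at 0 of the 3 blood starts. At either gene end, 8 of the 11 neural markers had a peak of every library, near the 66.8% of other genes. All 3 endothelial markers did, and none of 3 blood markers. Whole lung holds nerves as well as other cells, and which cells carried the open protocadherin promoters was not tested.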

How the data were processed

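Each library had its own deposited narrow-peak list on build mm10. Per the submitters' processing notes, MACS3 3.0.1, Bowtie2 2.5.2 and Trim Galore were among the tools, together with SAMtools 1.18, FastQC 0.12.1, deepTools and bedtools 2.31.0. Their roles and parameters, duplicate removal, multiply aligned reads and the shift for the Tn5 cut are not given in the sources used here. The authors' fold enrichment is the ratio at the summit of a peak, and the authors' lists also hold a −log10 p, a −log10 q and a score of 10 times the −log10 q. Total read depth is unknown here. Summit pileups were recovered instead, since 100% of folds below 15 fell on a regular grid with a spacing set by the library (tolerance 0.02 steps) and a Poisson model returned the authors' −log10 p for 100% (tolerance 0.05). Intervals for single values were not computed.

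Only peaks of the 19 autosomes and both sex chromosomes entered. Gene positions came from RefSeq on GRCm38.p6, the assembly of mm10. A strand was at hand for 17492 of 21830 other protein-coding genes. Members were taken as transcribed left to right, since alpha and gamma genes share their right end and beta genes run the same way. Open means that a peak of every library touched the window. Overlapping or adjoining peaks were merged. Promoter shares were compared over libraries by exact two-sided sign-flip permutation tests, with Benjamini-Hochberg adjustment. Named genes were the C-type members, up to 4 leading members per subcluster, all open members, neighbours, and the leading 3 and the closed genes of each related list. Marker lists are given as counts. The members and lists were chosen with earlier results of these data known. The code was tested on simulated peaks. Python 3.11.15, numpy 2.4.6, pandas 2.3.3 and matplotlib 3.10.9 were used. Alternatives tried included a stricter q (1e-05), cutting all lists to equal length, windows of 0.5 and 2.5 kb, the summit in the window, 3 of 4 libraries, 50% overlap, leaving out each library and, chosen after seeing the data, either gene end for related lists.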

Additional observations from a re-analysis of the deposited data

Results flagged for a closer look

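In 10 of 30 sets of 4 library values, 1 library stood far from the other 3. Chance flags about 5% of such sets, and these sets share libraries and bases, so they are not independent. The sets for alpha, beta and C-type genes had 3 equal values, and 1 gene was enough to flag them. The 5% does not apply to such small counts, so no excess can be read from the number flagged.

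Replicate 1 was the low library for bases covered: 31.4% of the C-type gamma stretch, 4.04% of the upstream flank, 3.76% of the whole locus and 2.43% from the first start to the last end. It was also low for the share of other protein-coding genes with a promoter peak, at 65.55%. It was high for the share of all clustered protocadherins with a promoter peak, at 25.9%, and for beta genes, at 4.55%, through Pcdhb19 alone. Its peak at Pcdhgc5 stood at the 16.2th percentile of all peaks, where the other libraries had a wide peak with a distant summit.

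Replicate 3 was the high library for alpha genes, at 14.3%, and for C-type genes, at 100%, both through the peak at Pcdhac1.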

How the results depend on the processing

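No paired analysis was possible because the study had 1 group. The difference between alpha and beta promoter shares turned to -1.30 points with windows of 2.5 kb (exact sign-flip permutation p = 0.875), where weak peaks near beta genes were counted. With those windows, genes open in every library numbered 5 among alternate gamma genes, 5 among all alternate genes and 5 among all members without the C-type, against 3 in each by 1 kb windows. The other 3 differences in promoter share kept their sign under all alternatives run. The members open in every library numbered 6 to 9 under the alternatives, and 7 without each library in turn, and no beta gene was open in every library under any of them. Shared regions from the first start to the last end numbered 13 in the main setting, 10 at the stricter q and 12 with lists of equal length. Without each library in turn they numbered 14 to 16, but a peak was then asked of only 3 libraries, which makes the call easier to pass. No comparison could pass 0.05, since the smallest p is 0.13 with 4 libraries and 0.25 with 3. Summits at or near alternate and beta genes rested on 8 to 29 fragments, and the part of depth in these calls was not tested.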

Other observations

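Summits also lay further inside some members. Among alternate gamma genes, 7 had a summit 1500 to 3000 bp after the gene start in at least 1 library. Such summits were found at 0, 1, 5 and 4 genes in replicates 1 to 4, while summits within 300 bp of the start were found at 10, 4, 3 and 4 genes. Pcdhga11, a neighbour of Pcdhgb7, had one 2027 to 2170 bp after its start in replicates 2 to 4, with folds of 3.86, 3.34 and 3.42, and none there in replicate 1. In the beta subcluster, Pcdhb16 and Pcdhb17 had summits 1819 to 2110 bp after their starts in replicates 2 and 4, all resting on 8 or 9 fragments. This window was chosen after the values were seen, and no test was made.

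Past the gamma end, several strong sites lay inside the annotated span of Diaph1, from 37843601 to 37935622. A summit 8.0 kb past the shared end had folds of 131, 22.4, 19.2 and 21.2 in replicates 1 to 4. A summit 38.5 kb past it stood at the 94.4th ± 2.04 percentile of all peaks (SD, n = 4).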
